A study of Mus musculus with 23 samples.

Results

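Major urinary protein genes (Mup) were followed through 23 RNA-seq libraries of a mouse colorectal cancer model, gene by gene and mouse by mouse. The rows of Mup1, Mup3, Mup7, Mup10, Mup20 and Mup21 were taken by their symbols from a table of 48895 genes, and all 6 were found. They are 6 of the 30 Mup rows of the table, of which 22 are genes and 8 carry a pseudogene name (Mup-ps). The row Gm21320 is counted among the 22, since RefSeq gives that symbol as a synonym of Mup22.

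All mice were male BALB/c, 4 to 6 weeks old when they were divided into the sham and tumor groups. Control liver came from 5 mice given a sham operation with medium (C1, C4, C5, C6 and C7). Pre-metastatic liver and primary tumor came from the same 9 mice (M1, M2, M4, M5, M6, M7, M8, M10 and M12), into whose cecal serosa CT26 cells had been injected; all tissue was collected 3 weeks after surgery. CT26 is a single established mouse colon carcinoma line, so the 9 tumors are grafts of 1 line and not independently arising tumors. The mice are the replicates, and a liver and a tumor with the same number share an animal.

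Major urinary proteins are small lipocalins, proteins with a barrel-shaped pocket that carries volatile ligands. In the mouse they are made by hepatocytes, secreted into blood and passed into urine, where they bind pheromones and act in scent communication. Their genes lie in a cluster of near-identical copies on chromosome 4, and in liver they are best known as male-biased genes that depend on pulses of growth hormone, acting through the growth hormone receptor, the kinase JAK2 and the transcription factor STAT5B, and on glucocorticoid and thyroid hormone. Mup20 encodes darcin, the male pheromone of mouse urine.

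On the mm10 build, the rows of the 6 genes lie on the minus strand of chromosome 4: Mup7 at 60066469-60070481, Mup1 at 60498012-60501960, Mup10 at 60578260-60582155, Mup20 at 62011410-62054143, Mup3 at 62083476-62087370 and Mup21 at 62147832-62150841. Their coding sequences (GENCODE M21, GRCm38) differ in how near they are to other copies. Mup1, Mup7 and Mup10 have 543 coding bases each and are 98.7% to 99.1% identical to one another, and each is at least 99.3% identical to another copy of the cluster (Mup12 for Mup1 and Mup7, Mup9 for Mup10). Mup3, Mup20 and Mup21 stand apart from them, at 82.7% to 90.7% identity. Mup20 is nearer to Mup1, Mup7 and Mup10 (90.1% to 90.7%) than to Mup3 (87.1%) or Mup21 (88.0%). Mup3 and Mup21 are 94.8% identical to each other, and the nearest copy of Mup20, Mup11, is 91.4% identical to it.

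The same 75 coding bases of each gene, all within exon 2, are printed to show which copies a read can tell apart. They are given 5′ to 3′ in the sense of the gene, with capitals where a gene differs from Mup10, and with GRCm38 positions.
Mup10, chr4:60581550-60581624, minus strand: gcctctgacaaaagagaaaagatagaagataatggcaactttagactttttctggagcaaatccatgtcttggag
Mup1, chr4:60501311-60501385, minus strand: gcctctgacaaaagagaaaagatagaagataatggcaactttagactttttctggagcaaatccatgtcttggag
Mup7, chr4:60069762-60069836, minus strand: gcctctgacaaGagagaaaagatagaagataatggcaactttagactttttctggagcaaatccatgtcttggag
Mup20, chr4:62053509-62053583, minus strand: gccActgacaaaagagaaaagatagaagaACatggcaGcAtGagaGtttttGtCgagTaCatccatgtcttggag
Mup3, chr4:62086829-62086903, minus strand: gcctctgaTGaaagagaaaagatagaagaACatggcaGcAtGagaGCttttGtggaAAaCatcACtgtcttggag
Mup21, chr4:62150224-62150298, minus strand: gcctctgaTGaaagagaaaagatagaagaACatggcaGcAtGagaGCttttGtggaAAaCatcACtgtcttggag
In this stretch Mup1 did not differ from Mup10, Mup7 differed at 1 base, Mup20 at 11 and Mup3 and Mup21 at 15 each, and Mup3 and Mup21 have the same letters.

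Over the whole transcript, 90.5% of the 75-base windows of Mup1, 91.7% of those of Mup7 and 85.8% of those of Mup10 also occur in the transcript of another gene, in each case among 16 other Mup genes. The share was 6.81% for Mup3, which shares windows with Mup21 only, 10.3% for Mup21, and 43.6% for Mup20, which shares windows only with the pseudogene Mup-ps19. With 150-base windows, Mup3 and Mup21 share none and Mup1, Mup7 and Mup10 still share 77.5% to 84.4%. How the counting treated a read that fits several copies is not given in the sources used here, and the reference is another strain (C57BL/6J) than the mice. By these reference windows, counts of Mup3 and Mup21 are less open to shared reads, though assignment of the BALB/c reads was not tested. A count of Mup1, Mup7 or Mup10 names the copy to which reads were assigned and not a copy measured on its own.

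The 23 libraries held 44587556 to 79773163 counts. The livers carried high levels of hepatocyte genes, with Alb at 15822 to 46034 RPKM (the count per kilobase of gene, scaled to the total of the library), and the tumors carried Alb at 2.97 to 173 RPKM together with the mesenchymal gene Vim at 2807 ± 241 RPKM and the proliferation gene Mki67 at 37.0 ± 4.09 RPKM (mean ± SD, n = 9). The epithelial gene Epcam averaged 0.305 RPKM in the tumors. A clock index, Dbp, Per3 and Ciart less Arntl, Npas2 and Clock, divided the livers at its largest gap. The side that held most controls was named early (C1, C4, C5, C6, M4, M5, M6, M7 and M8). The other was named late (C7, M1, M2, M10 and M12), so 1 of 5 control and 4 of 9 pre-metastatic livers were late. The names are labels and not measured times. C7 lay between the 2 sides, with an index of 0.981 against -0.102 in M7 and 2.05 in M12. The hour of collection is not given in the sources used here.

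Mup3 was the most abundant of the 6 genes in every liver. In control liver its level was 2525 RPKM in C1, 2522 in C4, 2794 in C5, 3506 in C6 and 1466 in C7. In pre-metastatic liver it ran from 655 RPKM in M6 through a median of 3265 to 7258 in M2. Of the 9 pre-metastatic livers, 4 lay above every control, 2 lay below every control (M6 and M12) and 3 lay within the control range, so the groups overlapped. The means were 2563 ± 733 RPKM (SD, n = 5) and 3735 ± 2111 RPKM (SD, n = 9), with a log2 fold change of 0.57 ± 0.40 (SE) and an adjusted p of 0.298 (edgeR quasi-likelihood test, Benjamini-Hochberg adjustment over all genes tested).

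Mup21, the close relative of Mup3, was present at 79.4 RPKM in C1, 53.3 in C4, 117 in C5, 263 in C6 and 19.4 in C7. Its pre-metastatic levels ran from 14.4 RPKM in M6 through a median of 124 to 500 in M2. Only 2 pre-metastatic livers lay above every control, 1 lay below, and 6 lay within the control range. Its log2 fold change was 0.76 ± 0.68 (SE), with an edgeR adjusted p of 0.427.

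Mup20, the darcin gene, was the only gene of the 6 with a lower fitted level in pre-metastatic liver. Control livers had 136 RPKM in C1, 96.6 in C4, 99.4 in C5, 145 in C6 and 24.7 in C7, and pre-metastatic livers ran from 17.7 in M6 through a median of 69.9 to 164 in M2. Of the pre-metastatic livers, 6 were within the control range, 2 below it and 1 above it. The log2 fold change was -0.52 ± 0.45 (SE), with an edgeR adjusted p of 0.406.

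Mup1, Mup7 and Mup10 are the copies whose windows are mostly shared. Mup7 had 614 RPKM in C1, 270 in C4, 322 in C5, 649 in C6 and 31.4 in C7, against 18.2 in M6, a median of 571 and 1086 in M7 in pre-metastatic liver, and its log2 fold change was 0.67 ± 0.79 (SE; edgeR adjusted p = 0.555). Mup1 had 62.0, 45.7, 38.7, 36.5 and 10.5 RPKM in C1, C4, C5, C6 and C7, and ran from 2.72 in M6 through a median of 57.5 to 123 in M2, with a log2 fold change of 0.40 ± 0.63 (SE; edgeR adjusted p = 0.661). For both genes 4 pre-metastatic livers lay above every control and M6 lay below every control (for Mup1, M12 as well), so the groups overlapped.

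Mup10 came nearest to a call. It had 67.1 RPKM in C1, 45.1 in C4, 38.4 in C5, 73.5 in C6 and 17.0 in C7, against 12 in M6, a median of 121 and 249 in M4 among the pre-metastatic livers. Of these, 6 lay above every control, M6 lay below every control, and M1 and M12 lay between. The log2 fold change was 1.33 ± 0.55 (SE), a 2.51-fold higher fitted level, with an adjusted p of 0.0782 by edgeR. Without the liver of M6 the edgeR adjusted p was 0.0209 (log2 fold change 1.48), and with clock phase as a covariate it was 0.0454 (log2 fold change 1.59). The fit with clock phase takes C7 as the only late control, and another placing of C7 was not tested. Other alternatives did not pass. Leaving out single livers gave edgeR adjusted p of 0.0209 to 0.157. Over all alternatives by edgeR, DESeq2 and limma the adjusted p reached 0.392.

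**Figure D1:**
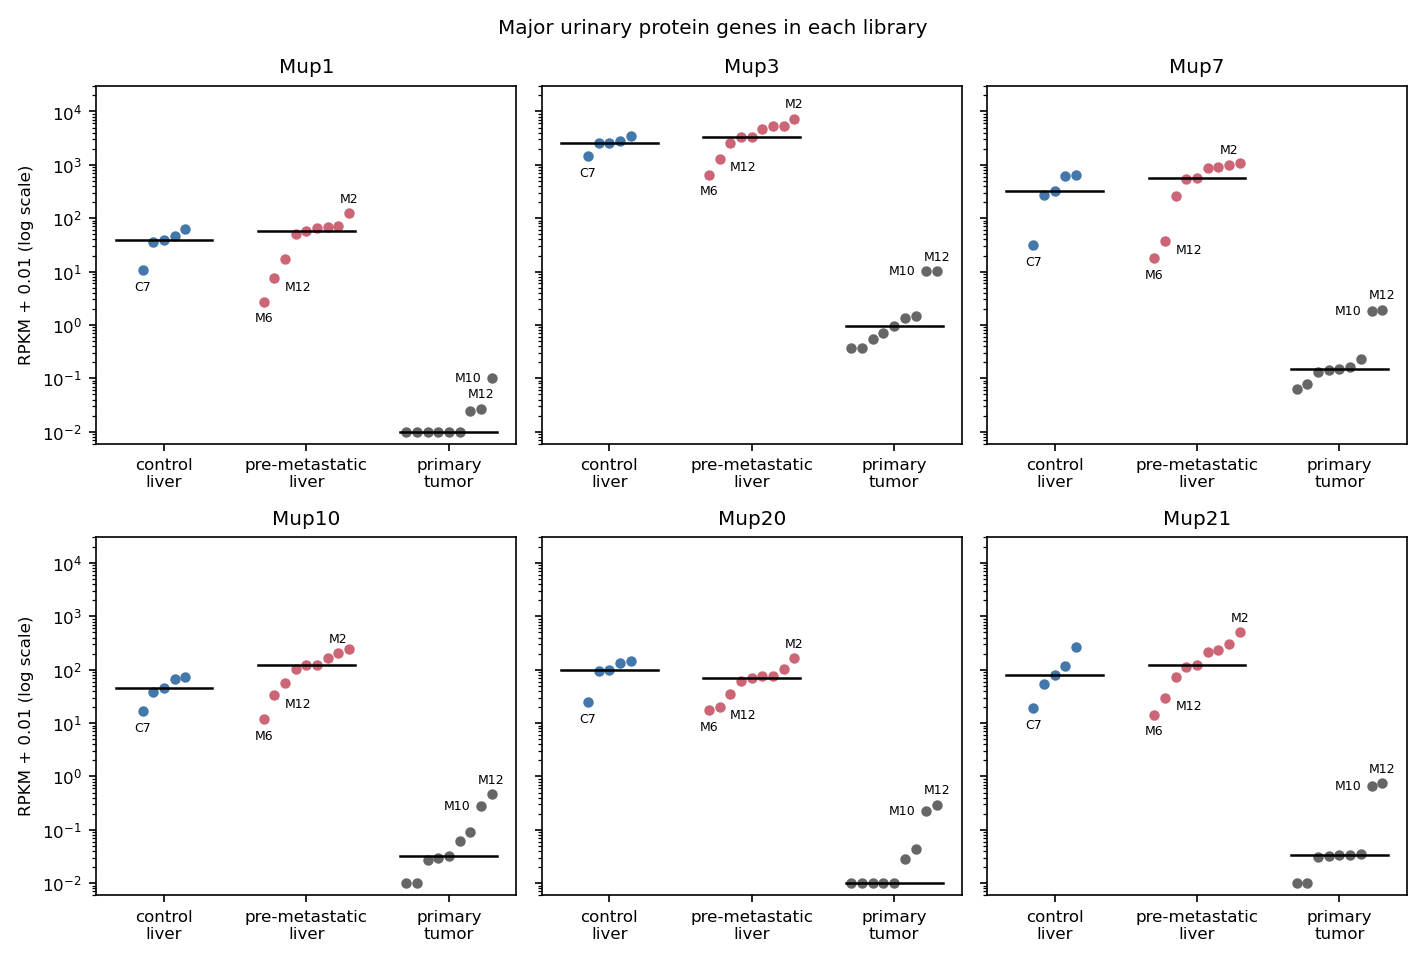
RPKM of the 6 genes in each library, on a log scale after adding 0.01; points are libraries ordered by value within a group and lines are medians. In every panel the lowest livers are M6, M12 and C7, and the tumors, 2 of which (M10 and M12) lie above the rest for Mup3, Mup7 and Mup21, sit far below all livers.

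In all, 0 of the 6 genes passed an adjusted p of 0.05 between the livers, where 31.0% of the 16987 genes tested did (5270 genes). At an unadjusted p under 0.05 the edgeR count was 1 of 6 (Mup10), and DESeq2 and limma also called 0 of 6 after adjustment. The median log2 fold change was 0.62 over the 6 genes and 0.01 over all genes tested. Ranking the RPKM of each gene on its own (Wilcoxon's exact test, two-sided) gave p of 0.147 for Mup10, 0.240 for Mup20, 0.298 for Mup3, 0.438 for Mup1 and 0.518 for Mup7 and Mup21. A difference that does not pass is not a level shown to be alike. The SE of the log2 fold change ran from 0.40 for Mup3 to 0.79 for Mup7, so differences larger than the fitted ones stay possible. An interval of 2 SEs to either side of the log2 fold change includes 0 for every gene but Mup10.

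None of the other Mup rows was called either. Of 24 such rows, 20 were tested and 0 passed the adjusted p by edgeR, 2 had an unadjusted p under 0.05 (Mup5 and Mup-ps2), 18 had a positive and 2 a negative log2 fold change, and the lowest adjusted p was 0.0555 (Mup-ps2). Mup12, Mup9 and Mup17 were, with Mup3, the most abundant rows. Mup12 ran from 409 to 4112 RPKM in control and from 79.3 to 7112 in pre-metastatic liver, Mup9 from 501 to 2360 and from 218 to 5090, and Mup17 from 437 to 1881 and from 202 to 3551. The other rows that reached 100 RPKM in a liver were Mup5, Mup8, Mup11, Mup13, Mup14, Mup15, Mup16 and Gm21320 (Mup22), with highest values between 105 and 391 RPKM. The remaining 13 rows stayed at or below 99.3 RPKM.

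**Figure D2:**
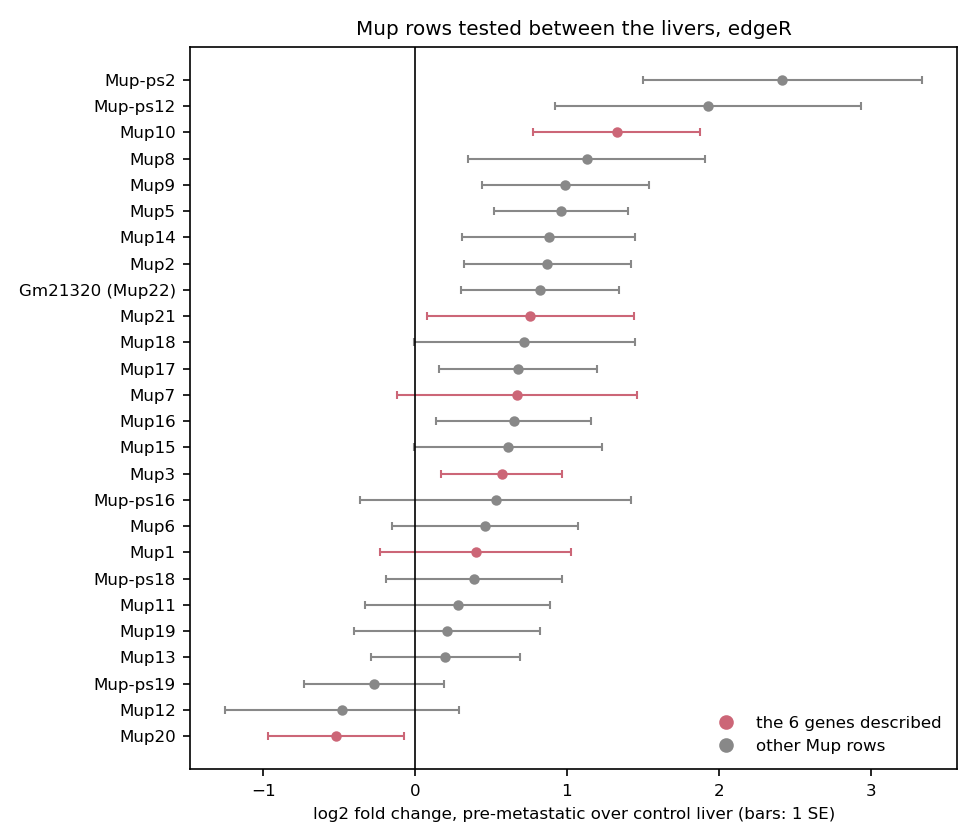
Log2 fold change of each tested Mup row between pre-metastatic and control liver from edgeR, with bars of 1 SE; colored points are the 6 genes described. Mup20 is the lowest at -0.52 and Mup10 the highest of the 6 at 1.33, and no row passed the adjusted threshold.

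Levels of these genes varied widely from liver to liver. The summed RPKM of the 6 genes ran from 1569 to 4673 over the control livers, a 2.98-fold range, and from 720 (M6) to 9255 (M2) over the pre-metastatic livers, a 12.9-fold range; whether the 2 spreads differ was not tested. Mup1 spanned a 45.2-fold range and Mup7 a 59.6-fold range over the pre-metastatic livers. All Mup rows together took 0.301% to 1.29% of the counts of control livers and 0.133% to 2.21% of those of pre-metastatic livers. Fewer hepatocytes and less Mup RNA per hepatocyte cannot be told apart in whole tissue. The 9 hepatocyte genes read beside them did not go one way in M6 and M12, the pre-metastatic livers with the least Mup RNA. Both livers had the highest levels of all 14 for Alb, the albumin gene (46034 and 41234 RPKM), and for Trf, the transferrin gene (13779 and 13255 RPKM). M6 also had the lowest level of all 14 for Apob (430 RPKM), Cyp2e1 (2474 RPKM) and Tat (175 RPKM), for which the controls ran from 444 to 672, from 4712 to 6212 and from 554 to 1822 RPKM. Apoa1, Ttr, Cps1 and Hpd were neither highest nor lowest in M6 or M12. The part of hepatocyte content in the Mup levels was not tested. Per 100 Alb counts, all Mup rows gave 1.41 counts in M6, 3.77 in M12 and 4.82 in C7, against 48.4 in M5 and 48.3 in M2.

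The 6 genes rose and fell together from mouse to mouse. After the mean of each group was taken off log2(RPKM + 1), Pearson's r between any pair of them over the 14 livers was 0.88 to 0.96 over 15 pairs, with a median of 0.93. The pair with almost no shared windows with the rest, Mup3 and Mup21, had 0.96. These points share library and depth, and Mup1, Mup7 and Mup10 also share sequence, so the values are a description. M6 had the lowest level of each of the 6 genes, M12 and C7 held the next places, and M2 had the highest level of Mup1, Mup3, Mup20 and Mup21. C7 and M12 belong to the late clock phase and M6 to the early phase, and M2 is late as well. Within the early livers the Mup3 medians were 2659 RPKM (n = 4) in control and 3265 RPKM (n = 5) in pre-metastatic liver.

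As a share of all Mup counts, with Mup12 in the total, Mup10 alone of the 6 genes separated the groups. It made up 0.438% to 0.525% of all Mup counts in the 5 control livers and 0.656% to 1.05% in the 9 pre-metastatic livers, so on this measure the groups did not overlap. The shares of the other 5 genes overlapped, as did the RPKM of Mup10. Outside the 6, the share of Gm21320 (Mup22), which shares windows with Mup10, did not overlap either. It was 0.397% to 0.465% in control and 0.482% to 0.691% in pre-metastatic liver. RPKM, a different measure, did not overlap between the groups for 10.9% of all genes tested. Mup20 moved the other way, from 1.08% in C1 and C4, 1.19% in C5, 1.09% in C6 and 0.797% in C7 to a median of 0.610% in pre-metastatic liver, with 8 of 9 below every control and only M6 above them at 1.29% (95% Wilson interval 1.21% to 1.37%). The Mup20 intervals of M2 (0.773%, 0.756% to 0.792%) and of C7, the lowest control (0.797%, 0.755% to 0.841%), overlapped. The widest of these intervals for a single liver was ± 0.0806 percentage points, and they cover counting error only. These shares are descriptions without a test. Since 85.8% of the Mup10 windows are shared, its share also moves with how reads were assigned among copies. Of the Mup20 windows 43.6% are shared, with Mup-ps19 only, so the share of Mup20 can move in this way too. Neither effect was tested.

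**Figure D3:**
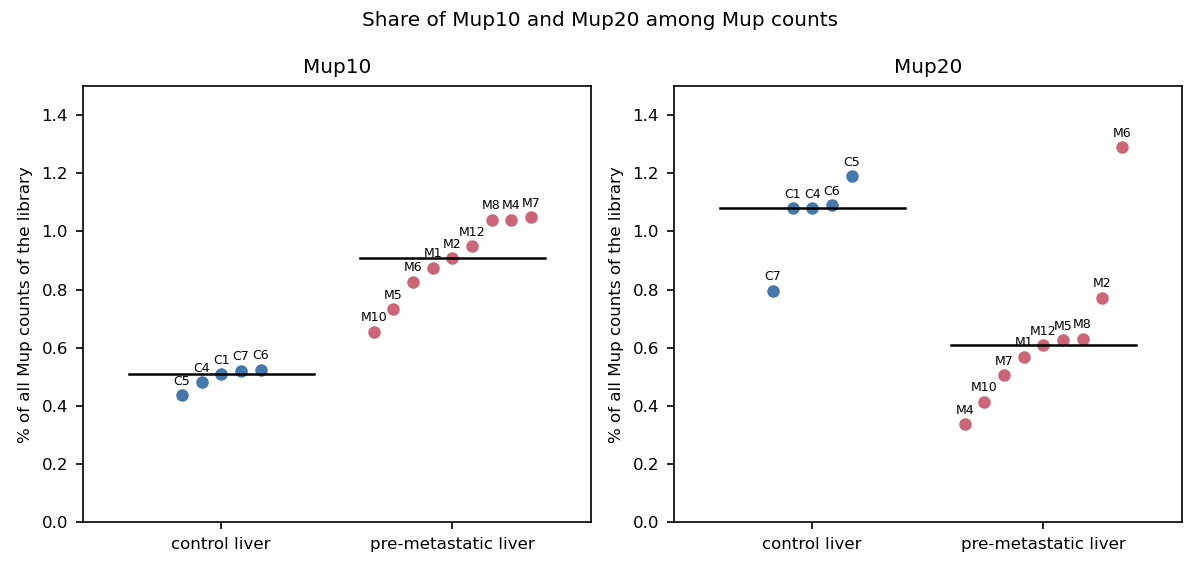
Counts of Mup10 (left) and Mup20 (right) as a percentage of all Mup counts of the same liver, 1 point per mouse with its number, lines for medians. Mup10 has 5 control livers below all 9 pre-metastatic livers, and Mup20 has 8 of 9 pre-metastatic livers below all controls, with M6 above them. The Mup10 separation holds only with Mup12 in the total.

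Relative to Mup3, the ratio of Mup20 counts was 0.0164 to 0.0523 in control and 0.0127 to 0.0263 in pre-metastatic liver, which overlapped, with medians of 0.0373 and 0.0186. The Mup10 to Mup3 ratio was 0.0107 to 0.0246 in control and 0.0169 to 0.0478 in pre-metastatic liver. Mup12, which was not among the 6, made up 12.6% to 31.3% of Mup counts in control and 2.29% to 29.8% in pre-metastatic liver. A share of this size moves the shares of all other rows with it. C1 had 3744 Mup10 and 229469 Mup12 counts among 733749 Mup counts. The pre-metastatic liver of M10 had 5426 and 88368 among 827182. With Mup12 left out of the total, the Mup10 share of C1 lies above that of this liver, so the groups overlap. The shares of Gm21320 (Mup22) then overlap too.

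The genes of growth hormone signaling, which acts upstream of Mup transcription, were then read in the same livers. Of 10 genes of this list, 5 rose, 0 fell and 5 did not pass the test, where 17.7% of all genes tested were called higher and 13.3% lower. Ghr, the receptor, rose from 49.0 ± 9.69 to 103 ± 41.6 RPKM (mean ± SD, n = 5 and 9; log2 fold change 1.13 ± 0.25 SE, edgeR adjusted p = 0.00323). Jak2, the receptor's kinase, rose by 0.49 on the log2 scale, and Stat5a and Stat5b, the transcription factors it activates, by 0.89 and 0.54. Socs3, an inhibitor of cytokine receptor signaling, rose by 1.26. The log2 fold changes of the others, none of which passed, were 0.77 for Socs2 and 0.34 for Cish (feedback inhibitors), 1.30 for Bcl6 (a repressor at STAT5 sites), 0.33 for Igf1 and 0.17 for Igfals (hepatic targets). Without TMM scaling the count of risen genes was 3 of 10.

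Of 9 regulators of Mup genes and of sex-biased liver genes, 1 rose and 3 fell. Nr3c1, the glucocorticoid receptor, rose by 0.56 on the log2 scale (edgeR adjusted p = 0.00883). Among those that fell, Hnf4a fell by 0.70 and Foxa2 by 1.32 on the log2 scale, both being hepatocyte transcription factors. Without C5 the number called lower was 1. Values without a call were 0.25 for Thrb (a thyroid hormone receptor), -0.93 for Onecut1 and -0.58 for Cebpa (hepatocyte factors), 0.18 for Zhx2 (a repressor of fetal liver genes) and -0.05 for Cux2 (a female-biased repressor).

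Male-biased liver genes, the class to which Mup genes belong, were called higher in 5 of 15 and lower in 0, beside 17.7% and 13.3% of all genes tested; whether the class differs from other genes was not tested. The largest were Hsd3b5, a steroid dehydrogenase, at 0.513 to 10.7 RPKM in control and 3.68 to 280 RPKM in pre-metastatic liver (log2 fold change 5.57 ± 1.02 SE, edgeR adjusted p = 0.000986), then Nudt7 (2.18) and C6 (1.81). Of 11 female-biased genes tested, Prlr, the prolactin receptor, rose by 0.82 and Cyp17a1, a steroid hydroxylase, fell by 4.13 on the log2 scale. Without C7, 4 female-biased genes were called higher.

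Of 9 other lipocalins tested, 5 rose and 1 fell; Orm2 (log2 fold change 5.28), Orm1 (2.51) and Lcn2 (2.32), which are acute-phase lipocalins, rose most, and Rbp4, the plasma retinol carrier, fell. Whether the Mup genes differ from these genes was not tested. All 11 positive acute-phase genes rose, led by Saa2 (5.28), Saa1 (3.90) and Saa3 (2.89). Among the markers of other cells, 4 of 5 Kupffer cell genes rose, with the summed level at 36.6 to 75.4 RPKM in control and 67.4 to 212 RPKM in pre-metastatic liver, and S100a8 and S100a9 rose among 4 neutrophil genes tested. Hepatocyte markers were called lower for Tat, Hpd and Cps1 and higher for Trf, out of 9. Of the remaining marker lists, 2 of 4 B and T cell genes, 1 of 3 sinusoidal endothelial genes (Stab2), 1 of 3 cholangiocyte genes (Krt19) and 0 of 3 stellate cell genes rose, and Mki67 and Top2a, genes of dividing cells, were among 5 of 8 tumor check genes that rose. The part of these changes in the Mup levels was not tested.

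Across the 9 pre-metastatic livers, Mup3 was set against each of the 45 tested genes of the growth hormone, regulator, male-biased and female-biased lists, with log2(RPKM + 1) and exact permutation tests. Of 15 male-biased genes, 14 had a positive r, with a median of 0.88, and 11 passed an adjusted p of 0.05 over the 45 relations, each with r of at least 0.78. Over the 16961 genes tested that are not Mup rows, r was positive for 73.6%, its median was 0.32, and 8.22% reached 0.78. Cyp4a12a had r = 0.93 (exact permutation adjusted p = 0.00391) and Spearman's rho = 0.92 (exact permutation adjusted p = 0.0138). Hsd3b5 had r = 0.95 (exact permutation adjusted p = 0.00391) and rho = 0.88 (exact permutation adjusted p = 0.0138). Ghr had r = 0.92 (exact permutation adjusted p = 0.00454) and rho = 0.88 (exact permutation adjusted p = 0.0138), and no other of the 10 growth hormone signaling genes passed. Sult3a1, a female-biased sulfotransferase, ran against Mup3 with r = -0.87 (exact permutation adjusted p = 0.00724) and rho = -0.92 (exact permutation adjusted p = 0.0138). Hao2, also female-biased, ran the other way with r = 0.73 (exact permutation adjusted p = 0.0638) and rho = 0.90 (exact permutation adjusted p = 0.0138). Of the 11 female-biased genes, 5 had a positive and 6 a negative r, with a median of -0.16.

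The 2 livers farthest from the median of Mup3, M6 and M12, carried part of these relations. Without them r was 0.90 for Ghr, 0.83 for Cyp4a12a, 0.79 for Hsd3b5, -0.53 for Sult3a1 and 0.82 for Hao2. The median r without them was 0.72 in place of 0.88 over the male-biased genes, 0.20 in place of -0.16 over the female-biased genes and 0.22 in place of 0.32 over all genes. Of the 9 regulators, 2 passed with a positive r and 1 with a negative r. Thrb had r = 0.83 (exact permutation adjusted p = 0.0131) and rho = 0.88 (exact permutation adjusted p = 0.0138). Without M6 and M12 its r was 0.90. Nr3c1 had r = 0.78 (exact permutation adjusted p = 0.0329) but rho = 0.72 (exact permutation adjusted p = 0.0922). Its r was 0.62 without M6 and M12. Cux2 had r = -0.94 (exact permutation adjusted p = 0.00724) but rho = -0.68 (exact permutation adjusted p = 0.108). Its r was -0.57 without M6 and M12, so the relation of Cux2 rested largely on those livers. They had 3.60 and 1.67 RPKM of Cux2 against 0.0168 to 0.581 in the other 7. The early and late clock phases hold 5 and 4 of the 9 livers, too few for a correlation within a phase.

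**Figure D4:**
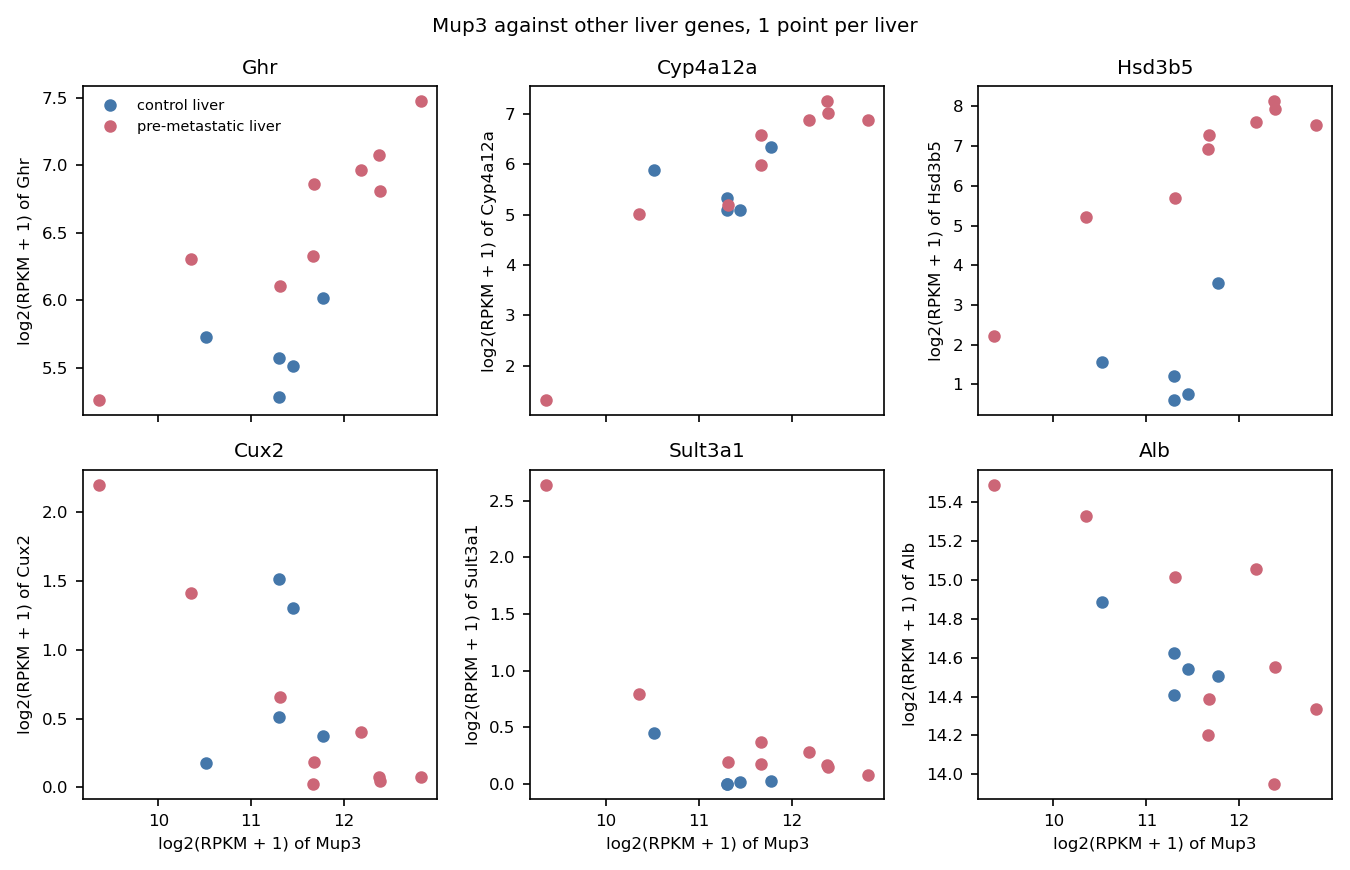
Mup3 against 6 other genes, both as log2(RPKM + 1), 1 point per control or pre-metastatic liver. Ghr, Cyp4a12a and Hsd3b5 climb with Mup3 over the pre-metastatic livers, and Cux2, Sult3a1 and Alb are highest in the livers with the lowest Mup3.

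The genes most like the summed 6 in their variation over the 14 livers, with group means taken off and Mup rows left out, were Cyp2c67 (r = 0.94), Abhd3 (0.94), Fam149b (0.93), Cat, which encodes catalase (0.92), and Alas2 (0.92), out of 16961 genes ranked. These values describe rank and carry no test. Cat had 313 RPKM in M6 and 466 in M12 against 616 to 841 in the controls and 1095 in M2. Of the 5 genes, Cyp2c67 (log2 fold change 1.42) and Alas2 (2.08) were also called higher in pre-metastatic liver, with edgeR adjusted p of 0.000601 and 0.000349.

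RefSeq promoter windows of GRCm38.p6, from 250 bases before to 50 after the start, were found for Mup3, Mup7, Mup10 and Mup21. Since the genes vary together from mouse to mouse, the windows of Mup3 and Mup10, whose coding sequences are 83.2% identical, are shown with the letters TATATAA in capitals.
Mup3, chr4:62087268-62087567, minus strand: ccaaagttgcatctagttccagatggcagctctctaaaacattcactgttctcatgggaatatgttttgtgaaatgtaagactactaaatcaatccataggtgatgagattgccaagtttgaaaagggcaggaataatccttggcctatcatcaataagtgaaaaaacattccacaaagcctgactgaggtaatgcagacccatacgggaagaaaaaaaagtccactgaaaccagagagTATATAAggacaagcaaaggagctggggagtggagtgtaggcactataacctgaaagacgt
Mup10, chr4:60582106-60582405, minus strand: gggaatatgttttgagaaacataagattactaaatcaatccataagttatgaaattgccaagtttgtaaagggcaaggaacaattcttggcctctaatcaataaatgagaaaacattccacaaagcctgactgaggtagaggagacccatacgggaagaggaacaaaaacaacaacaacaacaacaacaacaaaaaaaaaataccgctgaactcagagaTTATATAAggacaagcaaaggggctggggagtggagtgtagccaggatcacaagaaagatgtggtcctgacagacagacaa
In Mup10 a match on each strand overlaps, so 8 letters are in capitals. The letters TATATAA, chosen after these windows had been read and searched on both strands, occur in 3 of the 4 windows (not in Mup7) and in 3.24% of 32851 mouse windows. The STAT5 letters TTCNNNGAA, also searched on both strands, occur in 0 of the 4 and in 8.30% of all windows. The windows of Mup3 and Mup21 are 90.2% identical. A match describes letters only, and its absence says only that they are not in these 300 bases.

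In primary tumor the Mup genes were close to absent. All 6 were called lower than in pre-metastatic liver, where 39.5% of 19749 genes tested were called lower in tumor, and all 6 were called lower than in control liver, where 38.1% of 19320 were. Mup3 ran from 0.359 RPKM in M4 through a median of 0.932 to 10.2 in M12, which was 20 to 714 counts, and no tumor overlapped any liver. Its log2 fold change was -11.43 ± 1.01 (SE) against pre-metastatic liver (edgeR adjusted p = 2.06e-09) and -10.87 ± 1.02 (SE) against control liver (edgeR adjusted p = 5.14e-08). Without TMM scaling the median of all genes moved from 0.13 to 1.30 in the first comparison and from 0.18 to 1.26 in the second, and all 6 stayed lower.

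Mup7 was counted in every tumor, 3 to 135 times, with a highest level of 1.91 RPKM in M12. Mup10 had 51 counts over the 9 tumors, Mup21 70, Mup20 33 and Mup1 9. Mup1 was at 0 in 6 tumors, Mup20 in 5, and Mup10 and Mup21 in 2 each. A count of 0 allows up to 3 counts, which is 0.0438 to 0.0585 RPKM for Mup1 and 0.0495 to 0.0657 RPKM for Mup20 in those tumors, and fitted folds of genes so near 0 depend on the prior count.

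Tumors M10 and M12 held most of this RNA. The 6 genes together gave 924 counts in M10 and 729 in M12, and 24 to 108 in each of the other 7 tumors. The same 2 tumors had the highest Alb levels, 86.4 and 173 RPKM, against 2.97 to 15 RPKM in the others. Per mouse, the median tumor level of 9 hepatocyte genes was 0.290% of the own liver in M10 and 0.494% in M12, and 0.0131% to 0.0514% in the other 7. The 6 Mup genes had medians of 0.287% in M10 and 1.40% in M12. Where this RNA came from was not tested.

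The 6 genes stood at different percentages of the own liver in M12, a single pair of libraries with no test. Mup7 in the tumor was 5.22% of the liver level, Mup21 2.43%, Mup20 1.41%, Mup10 1.39%, Mup3 0.777% and Mup1 0.224%, and 4 of the 6 lay above all 9 hepatocyte genes, which ran from 0.419% to 0.798%. The tumor values rest on 108 counts of Mup7, 30 of Mup21, 23 of Mup10, 15 of Mup20 and 1 of Mup1, and those of Mup1, Mup7 and Mup10 also move with how reads were assigned among copies. In M10 the 6 genes ran from 0.140% to 0.360%, within or just below the hepatocyte range of 0.195% to 0.705%. The liver of M12 was among those with the least Mup RNA. Per 100 Alb counts, all Mup rows gave 9.60 to 32.4 counts over the 9 tumors and 1.41 to 48.4 over their 9 livers. The tumor value divided by that of the own liver was 18.8 in M6, 2.95 in M1, 2.55 in M12, 1.02 in M8, 0.953 in M10, 0.670 in M5, 0.603 in M4, 0.589 in M7 and 0.226 in M2. It thus lay above 1 in 4 mice and below 1 in 5. The counts behind the M6 tumor are small, at 99 for all Mup rows and 375 for Alb.

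**Figure D5:**
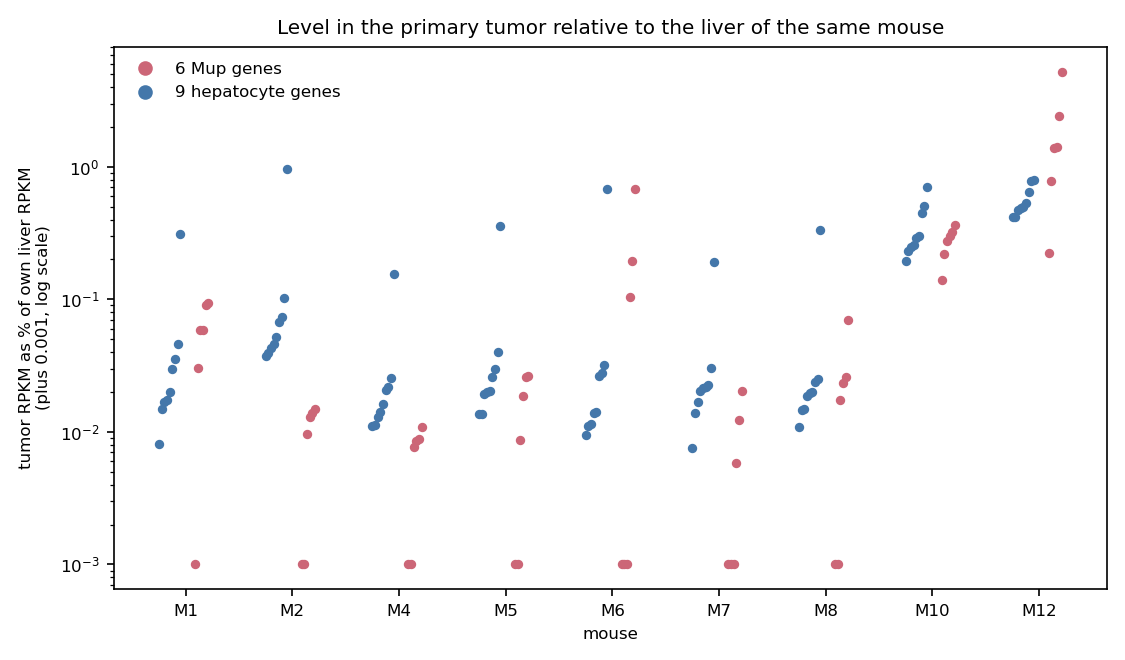
RPKM in the primary tumor as a percentage of RPKM in the liver of the same mouse, plus 0.001 and on a log scale, for the 6 Mup genes and 9 hepatocyte genes; each point is a gene. M10 and M12 lie highest for both sets, and in M12 4 Mup genes lie above all hepatocyte genes; the highest hepatocyte point of the other mice is Trf, the transferrin gene.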

How the data were processed

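The 23 libraries were made from poly(A) RNA with the NEBNext Ultra kit. The authors deposited, for each gene and library, the raw count and RPKM, which recomputing from counts, lengths and totals changed by at most 1.75e-06 of itself. The submitters' processing notes name HISAT2, HTSeq 0.6.0 and mm10; the annotation and the treatment of reads that fit several copies are not given in the sources used here. All 46 columns were matched to samples by name, and 2 repeated symbols were summed.

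Counts were tested with edgeR 4.0.16 in R 4.3.3 (TMM, quasi-likelihood test, two-sided) over genes that reached 10 counts in 5 or more libraries, with Benjamini-Hochberg adjustment and calls at 0.05. Alternatives were DESeq2 1.42.0, limma 3.58.1 on log2 CPM (prior count 2), other scalings, no filter, leaving out each library, clock phase, the mouse number as a block and, for each Mup gene, an exact Wilcoxon test. On simulated data, 176 of 200 genes changed by a log2 of 2 were recovered between the livers, with 5 false calls among 16987 genes. Between tumor and pre-metastatic liver it was 163 of 200, with 10 false calls among 19749 genes. Changes as small as those fitted for the 6 genes between the livers (-0.52 to 1.33) were not simulated. The recovery thus does not give the power to call them. Correlations used log2(RPKM + 1). Tumor and liver of a mouse come from 1 animal, and their deviations from the group means correlated at -0.034 to 0.161.

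The 6 genes, the lists and the rules for naming genes were chosen with earlier results of these data known. Named were all 6 genes, other Mup rows reaching 100 RPKM in a liver, every gene of the growth hormone and regulator lists (1 regulator and the B and T cell genes are not reported here by name), the 3 called genes with the largest change of each other list, and the 5 genes most like the summed 6. Tf was read as Trf. Sequences come from GENCODE M21 and RefSeq (GRCm38.p6), with windows of 75 and 150 bases. Depth was 44587556 to 79773163 counts a library; intervals (95% Wilson) and the floor of 3 counts cover counting error only. Python 3.11.15 with numpy 2.4.6, scipy 1.17.1, pandas 2.3.3, Biopython 1.88 and matplotlib 3.10.9 was used.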

Additional observations from a re-analysis of the deposited data

Results flagged for a closer look

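Mup1 in the primary tumor of M10 stood apart from the other tumors, at 0.0905 RPKM (7 counts) against 0 to 0.0168 RPKM in the other 8; its gap to the next tumor was 0.814 of the range of the group. It was the only such value among 18 groups examined (6 genes in 3 groups of libraries). Chance alone gives about 1 in 20, a rate that need not hold where 6 tumors are at 0. M10 was also the tumor with the most counts of the 6 genes together (924).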

How the results depend on the processing

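Between the livers, 0 of the 6 Mup genes were called by edgeR, and 1 (Mup10) with clock phase as a covariate; leaving out single livers gave 0 to 1, the 1 being Mup10 without M6. Over all alternatives the adjusted p of Mup10 ran from 0.0209 to 0.392. Of 138 single-gene alternatives in this comparison, 134 kept direction and side of the threshold. Mup1 turned to -0.20 on the log2 scale under the replicate block and to -0.01 as a difference of mean log2(RPKM + 1) in the Wilcoxon alternative, neither past the threshold. All 6 genes stayed lower in tumor in all 90 and 115 alternatives of the 2 tumor comparisons. Mouse numbers link different animals between the livers (correlations of deviations -0.117 to 0.086) and are only names there; that block gave 3464 called genes in place of 5270. The block by mouse between tumor and liver changed no call of the 6. Without TMM, 2377 genes were higher and 2796 lower between the livers (3009 and 2261 with it), and 13352 and 4206 between tumor and pre-metastatic liver (8648 and 7809 with it). Growth hormone genes called higher were 3 in place of 5 without TMM and under the block. Regulators called lower were 1 in place of 3 under the block and without C5, and 5 in the early clock phase; those called higher were 0 in place of 1 under the block. Male-biased genes called higher were 3 in place of 5 under the block. Female-biased genes called higher were 4 without C7 and 2 in the early phase, in place of 1. The causes were not tested. Depth limits the tumor values most, where Mup1 and Mup20 were at 0 in 6 and 5 tumors.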
